A study of Mus musculus with 39 samples.

Results

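Of the 12 tumour libraries from mice labelled Apc Min/+, 9 were set against 3 of the 4 libraries of non-tumour tissue of that genotype. These 9 tumours were selected on a measured value, a level under 50 CPM (a gene's counts scaled to 1000000 counts on genes in that library) of Cd79a, which encodes a chain of the B cell receptor complex and stands here for lymphoid follicles. The non-tumour libraries had to hold over 1000000 gene counts, which left out replicate 1 with 438639. The series holds 39 libraries in all, and 12 entered this comparison. Among the 9 tumours Cd79a lay between 4.04 and 34.0 CPM. Replicate 2, at 34.0 CPM, was the tumour just inside the threshold, and replicate 7, at 384 CPM, was the one just outside it. The other tumours left out had 620 and 880 CPM. Because Cd79a chose the tumours, it and the other B cell, plasma cell and follicular genes are not read as results, although 12 B and plasma cell genes and 7 follicular genes were in the fit of all genes and count toward its totals.

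All mice of the series were C57BL/6 and carried Apc Min/+, a germline allele with a premature stop in Apc, so the non-tumour tissue was heterozygous for it too. The 2 groups used here had wild-type Adam17 (ADAM17wt/wt). The other genotype, Apc Min/+ ::ADAM17 ex/ex, carries a germline hypomorphic Adam17 allele, and its 17 tumours and 6 non-tumour libraries are used below only for the same tissue contrast. The labels call the samples intestinal tumour and surrounding intestinal tissue. They give no age, sex, treatment or position along the gut, and they name no animal, so several libraries may come from 1 mouse. Replicate numbers here follow the order of the libraries within each group and pair no tumour with a non-tumour library. The p-values below measure the spread between libraries.

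APC is part of the complex that marks beta-catenin for destruction. When the remaining wild-type copy is lost in an intestinal epithelial cell, beta-catenin accumulates, enters the nucleus with TCF and LEF factors and switches on Wnt target genes, and an adenoma can form. Among these targets are secreted and intracellular inhibitors of the same pathway, such as Notum, Wif1, Dkk2, Nkd1 and Axin2, which limit Wnt signalling in the cell itself or in its neighbours. In Apc Min/+ mice adenomas arise mostly in the small intestine, whose epithelium changes along its length from lactose digestion and iron uptake near the stomach to bile acid uptake in the ileum.

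The 12 libraries held 5668185 to 11110278 gene counts, with 20893 to 23967 genes detected. Non-tumour replicates 2 and 3 were nearly alike (Spearman rho 0.993 across genes), while replicate 4 had a rho of 0.939 and 0.933 with them. The summed level of 11 endothelial markers was 1654 CPM in non-tumour replicate 4 and 170.5 and 141.1 CPM in replicates 2 and 3. The 7 red blood cell genes summed to 1226 CPM against 57.2 and 54.9 CPM, and the 14 macrophage and dendritic cell markers to 1195 CPM against 348.5 and 267.2 CPM. The 13 Paneth cell genes went the other way, at 1077 CPM against 13710 and 9717 CPM. Among the tumours, replicates 5, 6 and 11 resembled non-tumour replicates 2 and 3 most (rho 0.964 to 0.975), and replicate 8 least (0.919 and 0.925). No pair of libraries in either group agreed within sampling noise.

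Of 15113 genes tested, 1655 (11%) passed an adjusted p of 0.05 in the quasi-likelihood test of edgeR, with the Benjamini-Hochberg method for multiple testing. In the tumours 760 genes (5.03%) were higher and 895 (5.92%) lower. The median log2 fold change of all genes was 0.00. The CPM ranges of the 2 groups did not overlap for 908 genes that were higher (6.01%) and 509 that were lower (3.37%) in tumours, 1417 in all (9.38%). The count of calls depended on which non-tumour libraries were present. It was 492 (161 higher, 331 lower) without replicate 2, 982 (329 higher, 653 lower) without replicate 3, and 2194 without replicate 4, where 1079 genes (7%) were higher and 1115 (7.23%) lower. With all 12 wild-type tumours in the fit 187 genes passed, 184 of them among the 1655. Genes outside the B cell and follicular lists also differed between the tumours kept and left out. Tnfaip2, Gbp3, Calcrl and Lifr had means of 50.1, 36.5, 21.1 and 32.6 CPM in the 3 left out. In the 9 kept they had 9.14, 8.88, 4.46 and 9.3 CPM. Notum went the other way, at 94.5 CPM in the 9 and 1.915 CPM in the 3. These calls ended with all 12 tumours, and the part of the selection was not tested. Of the 87 called genes described below, 34 stayed past the threshold whichever 1 of the 12 libraries was left out.

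**Figure D1:**
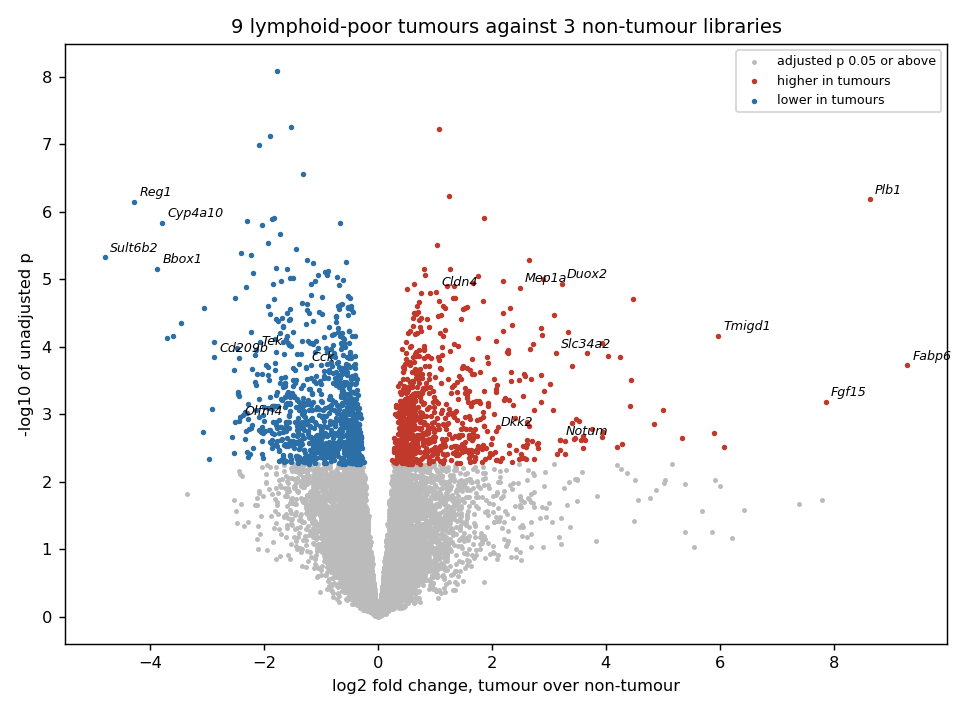
Each point is 1 of the 15113 genes, with the log2 fold change of the 9 lymphoid-poor tumours over the 3 non-tumour libraries on the horizontal axis and -log10 of the unadjusted p (edgeR quasi-likelihood test) on the vertical axis. Red and blue points passed an adjusted p of 0.05, and Fabp6 (9.29) and Plb1 (8.63) lie farthest to the right.

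The Apc gene itself (chromosome 18, 34220924 to 34322552, GRCm38, plus strand) had 100 to 130 CPM in the tumours, with a median of 123, and 154, 122 and 155 CPM in non-tumour replicates 2, 3 and 4. The groups overlapped at non-tumour replicate 3. Its log2 fold change was -0.36 ± 0.09 (SE; adjusted p = 0.0298, edgeR), and the call ended without non-tumour replicate 2 (adjusted p = 0.177) or 3 (0.0581) or tumour replicate 3 (0.0577). These counts do not separate the Min allele from the wild-type allele. Adam17, which encodes a membrane protease that sheds EGF receptor ligands and the IL-6 receptor, had 33.6 to 61.4 CPM in the tumours, with a median of 47.8, and 43.2, 42.5 and 66.9 CPM in non-tumour tissue. Its difference did not pass the test (log2 fold change -0.15 ± 0.11, adjusted p = 0.372, edgeR).

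Of 24 tested genes on a list of 26 Wnt targets and feedback genes, 6 rose and none fell (against 5.03% and 5.92% of all genes), and their median log2 fold change was 0.90 against 0.00. Without non-tumour replicate 4, 25 were tested, 6 rose and 1 fell (against 7% and 7.23% of all genes). The 1 that fell was Sfrp5, which encodes a secreted Wnt antagonist. Notum, which encodes a secreted enzyme that removes the lipid from Wnt proteins, lies on chromosome 11 (120653788 to 120661175, minus strand). It had 84.95, 56.8, 23.3, 20.5, 232.8, 181, 106, 42.9 and 103 CPM in tumour replicates 2, 3, 5, 6, 8, 9, 10, 11 and 12. The non-tumour libraries had 1.53, 7.90 and 22.1 CPM in replicates 2, 3 and 4. Tumour 6 lay below non-tumour replicate 4 and tumour 5 just above it, and the other 7 were above every non-tumour library. The log2 fold change was 3.19 ± 0.85 (SE; adjusted p = 0.0328, edgeR), and 4.06 without non-tumour replicate 4.

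Nkd1, an intracellular inhibitor that binds Dishevelled, had 32.3 to 343 CPM in the tumours (median 124) and 10.2, 14.1 and 43.9 CPM in the non-tumour libraries. It rose by 2.59 ± 0.71 on the log2 scale (adjusted p = 0.0368, edgeR), or 3.27 without non-tumour replicate 4, although the ranges overlapped. Dkk2, a secreted ligand of the Wnt co-receptors, had 1.84 to 20.8 CPM in the tumours (median 13.2) and 2.70, 1.84 and 3.71 CPM in non-tumour tissue. Only tumour replicate 5, at 1.84 CPM, was not above all 3 non-tumour libraries. The rise of Dkk2 was 2.07 ± 0.53 (adjusted p = 0.0285, edgeR).

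The Wnt ligands Wnt6 and Wnt10a and the transcription factor Lef1 rose as well. Wnt6 had 3.43 to 12 CPM in tumours and 1.08, 2.30 and 2.65 CPM in non-tumour tissue, with no overlap (1.59 ± 0.42, adjusted p = 0.0313, edgeR). Wnt10a was low throughout, at 0.581 to 5.01 CPM against 0.0900 to 0.353 CPM, also with no overlap (2.80 ± 0.76, adjusted p = 0.0343, edgeR). Lef1 had 1.23 to 12.3 CPM in tumours and 0.630 to 1.76 CPM in non-tumour tissue (2.35 ± 0.70, adjusted p = 0.0484, edgeR). T, which encodes brachyury, a mesodermal T-box factor and a Wnt target in the embryo, was not on the list but among the largest rises. It had 0.993 to 16.3 CPM in the tumours and 0.0900 to 0.459 CPM in the non-tumour libraries, with no overlap (4.42 ± 1.01, adjusted p = 0.0190, edgeR; 5.12 without non-tumour replicate 3).

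Several classical targets did not pass the test. Wif1, a secreted protein that binds Wnt ligands, had 4.34 to 179 CPM in tumours and 0.630 to 4.06 CPM in non-tumour tissue, which did not overlap, yet its adjusted p was 0.0512 (log2 fold change 4.20 ± 1.27, edgeR). Axin2, a scaffold of the destruction complex, had 43.1 to 135 CPM against 48.2 to 59.0 CPM (0.66 ± 0.23, adjusted p = 0.0769). Lgr5, the R-spondin receptor that marks crypt stem cells, had 8.13 to 88.6 CPM against 10.1 to 26.6 CPM (1.02 ± 0.67, adjusted p = 0.325). Prox1, a transcription factor, had 19.1 to 128 CPM against 6.93, 10.8 and 37.9 CPM (1.66 ± 0.58, adjusted p = 0.0769). Without non-tumour replicate 4 Prox1 passed (adjusted p = 0.0274).

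The 9 tumours were ordered in much the same way by these genes. Tumour replicate 8 had the highest level of 19 of the 24 genes, and replicate 9 was among the 3 highest for 22. Replicates 5, 6 and 11 were among the 3 lowest for 23, 21 and 19 of them. The summed level of the list was 2248 CPM in tumour 8, 426 CPM in tumour 5 and 536 CPM in tumour 6, against 398, 372 and 932 CPM in non-tumour replicates 2, 3 and 4. Non-tumour replicate 4 thus held more of these transcripts than 4 of the tumours.

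The calls in this group rested on few control libraries. All 7 (the 6 genes of the list and T) ended without non-tumour replicate 2 (adjusted p 0.0875 to 0.183, edgeR), and all except T ended without replicate 3 (0.0566 to 0.128). Those of Wnt10a and Lef1 ended without replicate 4 (0.0518 and 0.0601), and those of Notum, Wnt10a, Nkd1 and Lef1 also ended when single tumours among replicates 2, 3, 8, 9, 10 and 12 were left out (0.0505 to 0.0731).

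**Figure D2:**
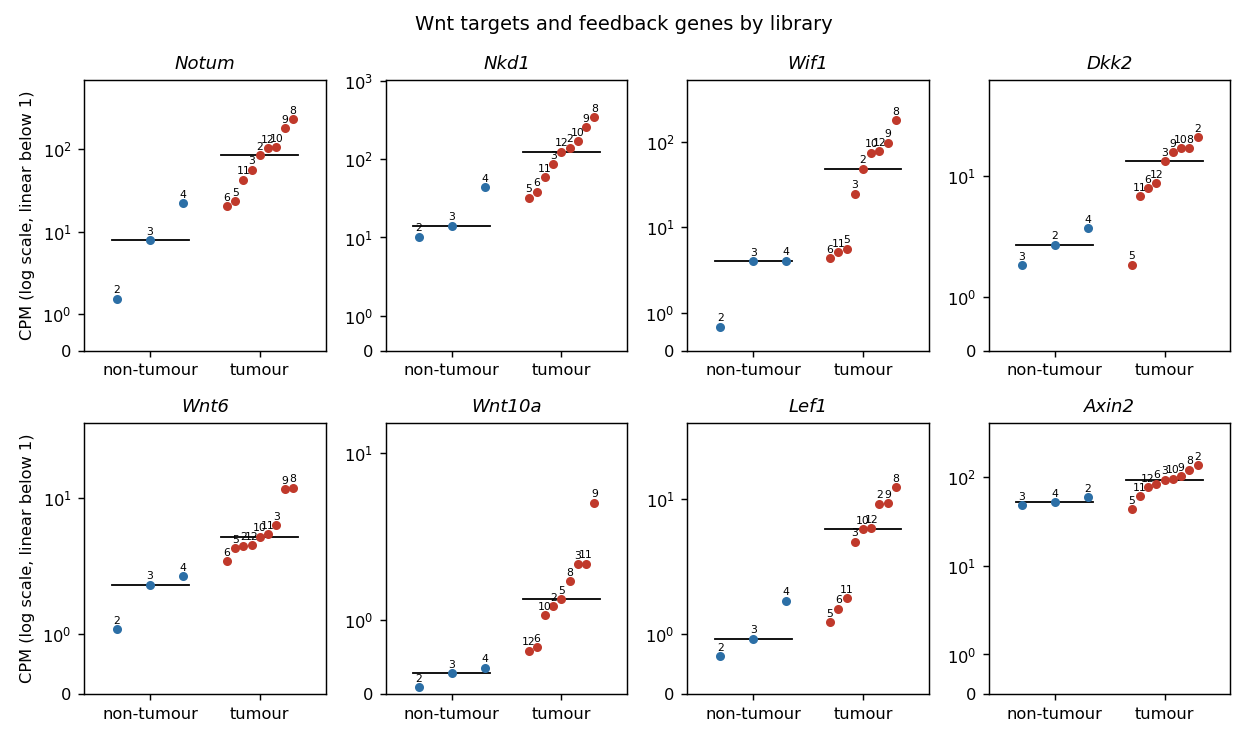
Each panel shows CPM on a log scale (linear below 1) in the 3 non-tumour libraries (blue) and the 9 tumours (red), numbered by replicate, with the median as a bar. Tumours 5, 6 and 11 sit at the bottom of the tumour range for Notum, Nkd1, Wif1 and Lef1.

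Of 13 stem cell genes tested, none was called higher and 2 were lower (against 5.03% and 5.92% of all genes), with a median log2 fold change of 0.46. At an unadjusted p of 0.05, 5 were higher and 2 lower, a threshold for which no share over all genes was taken. DESeq2 called 2 in each direction, against 1271 higher and 1370 lower of all 15113 genes. Olfm4, a secreted glycoprotein abundant in crypt stem cells, had 9.85 to 155 CPM in tumours (median 47.5) and 400, 338 and 75.0 CPM in non-tumour tissue. Tumour replicates 2 and 6 overlapped with non-tumour replicate 4. Olfm4 fell by 2.44 on the log2 scale (SE 0.60, adjusted p = 0.0241, edgeR). Aqp4, a water channel of the crypt base, had 0.266 to 5.85 CPM against 13.6, 11.3 and 4.23 CPM and fell by 2.21 (SE 0.55, adjusted p = 0.0258, edgeR). Tnfrsf19, a Wnt-induced receptor, had 7.68 to 80.0 CPM against 5.76 to 16.4 CPM and did not pass (1.74 ± 0.58, adjusted p = 0.0692, edgeR).

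Of 19 genes of regenerating and fetal-like epithelium tested, 5 rose and none fell (against 5.03% and 5.92% of all genes), with a median log2 fold change of 1.05. Without non-tumour replicate 4, 14 rose (against 7% of all genes) and the median was 2.08. The list summed to 3891 CPM in that library and to 767.8 and 729.5 CPM in non-tumour replicates 2 and 3. In the tumours it summed to 1848 to 6568 CPM, with a median of 3528. Cldn4, a tight junction claudin, had 265.3 to 513 CPM in the tumours and 149, 164 and 255.1 CPM in the non-tumour libraries, with no overlap (1.02 ± 0.15, adjusted p = 0.00392, edgeR). The ranges of F3 (tissue factor) and Sprr1a (a cornified envelope protein) overlapped only through replicate 4 of the non-tumour tissue. F3 had 39.6 to 149 CPM in tumours against 12.2, 11.3 and 52.8 CPM, and its rise of 1.79 ± 0.43 (adjusted p = 0.0237, edgeR) became 2.66 without that library. Sprr1a rose by 2.31 ± 0.66 (adjusted p = 0.0411, edgeR), or 3.98 without it.

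In this library the endothelial, red blood cell and macrophage sums were the highest of the 12, and their part in these values was not tested. Except for Cldn4, all calls of the stem cell and regenerative genes named here ended without non-tumour replicate 2 (adjusted p 0.106 to 0.160, edgeR) or 3 (0.0761 to 0.108). Sprr1a also lost its call when any 1 of tumours 2, 3, 8, 9, 10, 11 and 12 was left out (0.0511 to 0.0641).

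Of 10 distal small intestine genes tested on a list of 11, 6 rose and none fell (against 5.03% and 5.92% of all genes), with a median log2 fold change of 3.26. For 8 the CPM ranges did not overlap (6.01% of all genes were higher without overlap). The promoters of 4 genes are printed here because these genes rose together and their upstream sequence holds the letters TTTATG or, on the other strand, CATAAA, the core bound by the caudal-type factors CDX1 and CDX2 of the intestinal epithelium. Each run is the 250 bases before a RefSeq start (GRCm38.p6), 5′ to 3′ on the strand of the gene, with the match in capitals.
Fabp6, chr11:43601563-43601812, minus strand: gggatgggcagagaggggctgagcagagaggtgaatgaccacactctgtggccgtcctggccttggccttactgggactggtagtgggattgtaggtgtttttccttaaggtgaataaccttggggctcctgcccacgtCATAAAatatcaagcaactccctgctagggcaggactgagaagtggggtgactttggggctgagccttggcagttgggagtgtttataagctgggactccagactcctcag
Slc10a2, chr8:5105288-5105537, minus strand: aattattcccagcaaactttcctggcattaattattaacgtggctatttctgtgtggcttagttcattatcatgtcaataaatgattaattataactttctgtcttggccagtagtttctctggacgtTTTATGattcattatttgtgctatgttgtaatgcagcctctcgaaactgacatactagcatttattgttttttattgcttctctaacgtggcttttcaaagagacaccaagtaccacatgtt
Plb1, chr5:32238834-32239083, plus strand: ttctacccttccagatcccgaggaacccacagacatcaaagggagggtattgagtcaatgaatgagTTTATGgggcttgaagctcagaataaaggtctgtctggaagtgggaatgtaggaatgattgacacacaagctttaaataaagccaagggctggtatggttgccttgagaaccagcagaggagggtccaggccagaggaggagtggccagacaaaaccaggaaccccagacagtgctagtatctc
Tmigd1, chr11:76901909-76902158, plus strand: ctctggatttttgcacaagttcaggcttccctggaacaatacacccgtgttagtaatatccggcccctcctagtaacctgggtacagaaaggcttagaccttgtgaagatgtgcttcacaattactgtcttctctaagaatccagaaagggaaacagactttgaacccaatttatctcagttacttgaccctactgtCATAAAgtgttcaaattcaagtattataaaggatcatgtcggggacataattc
For Plb1 and Tmigd1 the table has a further start whose window holds no match. Of the 9 distal genes with an entry 4 held a match, of 7 proximal genes 2 did, and of all 32851 windows of this length 10.8% did. The TCF core CTTTGA, searched on both strands, occurred for 2 of 17 Wnt genes with an entry and in 13.8% of all windows. A gene with several starts counted if any of its windows matched, so counts of genes and shares of windows are not like for like. Both motifs were chosen after others had been tried. A match says only that these letters are present.

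Fabp6, the ileal bile acid binding protein (chromosome 11, 43596049 to 43601540, minus strand), had 5610, 1614, 7.78, 2560, 1038, 1935, 2597, 147 and 732 CPM in tumour replicates 2, 3, 5, 6, 8, 9, 10, 11 and 12. The non-tumour libraries had 2.34, 3.68 and 1.41 CPM. Every tumour was above every non-tumour library, but tumour 5 by little. The log2 fold change was 9.29 ± 1.81 (SE; adjusted p = 0.0105, edgeR). Slc10a2, the transporter that takes bile acids up from the ileal lumen, had 18.4 to 703 CPM in tumours (median 170) and 4.77, 4.23 and 7.23 CPM in non-tumour tissue (5.0 ± 1.16, adjusted p = 0.0202, edgeR). Fgf15, the hormone that ileal cells release in response to bile acids, had 2.46 to 184 CPM against 0.270, 0.0919 and 0 CPM (7.86 ± 1.77, adjusted p = 0.0181, edgeR). Both were without overlap, and tumour replicate 2 had the highest level and replicate 5 the lowest of each.

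Plb1, a brush border phospholipase (chromosome 5, 32232708 to 32366520, plus strand), had 181, 2014, 856, 2371, 714, 1413, 1580, 1080 and 1784 CPM in the tumours in the same order and 5.22, 2.39 and 1.59 CPM in non-tumour tissue. Here tumour 2 was the lowest of the 9, and tumour 5 lay among the others. The log2 fold change was 8.63 ± 0.97 (adjusted p = 0.00120, edgeR), and 9.28 without non-tumour replicate 2. Tmigd1, a membrane protein of the brush border, had 43.0 to 1046 CPM against 4.69 to 6.66 CPM (5.97 ± 1.04, adjusted p = 0.00664, edgeR). Slc51a, a subunit of the transporter that passes bile acids to the blood, had 246.4 to 820 CPM against 216, 205 and 73.6 CPM (1.52 ± 0.43, adjusted p = 0.0394, edgeR).

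Of 10 genes of the proximal small intestine tested, 2 were lower and none higher (against 5.92% and 5.03% of all genes), with a median log2 fold change of -0.58. Their summed level was 543 to 5702 CPM in tumours (median 1715) and 5273 to 6996 CPM in non-tumour tissue (median 6986). The ranges overlapped at tumour 5 and non-tumour replicate 4. Reg1, a secreted lectin of the upper small intestine (chromosome 6, 78422711 to 78428667, plus strand), had 1.86 to 16.4 CPM in tumours (median 3.96) and 103, 155 and 113 CPM in non-tumour tissue. It fell by 4.29 on the log2 scale (SE 0.48, adjusted p = 0.00120, edgeR), without overlap. Akp3, an alkaline phosphatase, had 0.783 to 5.96 CPM against 7.38, 5.70 and 10.4 CPM and fell by 1.86 (SE 0.52, adjusted p = 0.0375, edgeR).

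Gata4, a transcription factor of the duodenum and jejunum, had 10.2, 92.1, 129, 70.8, 47.2, 63.9, 51.4, 111 and 81.1 CPM in tumour replicates 2, 3, 5, 6, 8, 9, 10, 11 and 12 and 145, 140 and 121 CPM in non-tumour tissue. Tumours 5 and 11 were closest to the non-tumour level and tumour 2 farthest below it (log2 fold change -0.93 ± 0.50, adjusted p = 0.231, edgeR). Lct, which encodes lactase, had 14.4 CPM in tumour 2, 390 to 2782 CPM in the others and 3139, 2890 and 2233 CPM in non-tumour tissue (-1.05 ± 0.87, adjusted p = 0.444). The 9 tumours therefore differed among themselves in the genes that vary along the gut, and tissue and position cannot be told apart in this comparison. Without non-tumour replicate 2 or 3 the calls of Fgf15 (adjusted p = 0.0719 and 0.0591, edgeR) and Slc10a2 (0.0839 and 0.0642) ended. The fold change of Fgf15 was 8.96 without replicate 2, and 7.09 without tumour 2. Those of Akp3 and Slc51a ended without any 1 of the 3 non-tumour libraries (0.0636 to 0.114) and without single tumours among replicates 2, 3, 6, 9, 10 and 12 (0.0522 to 0.0623).

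**Figure D3:**
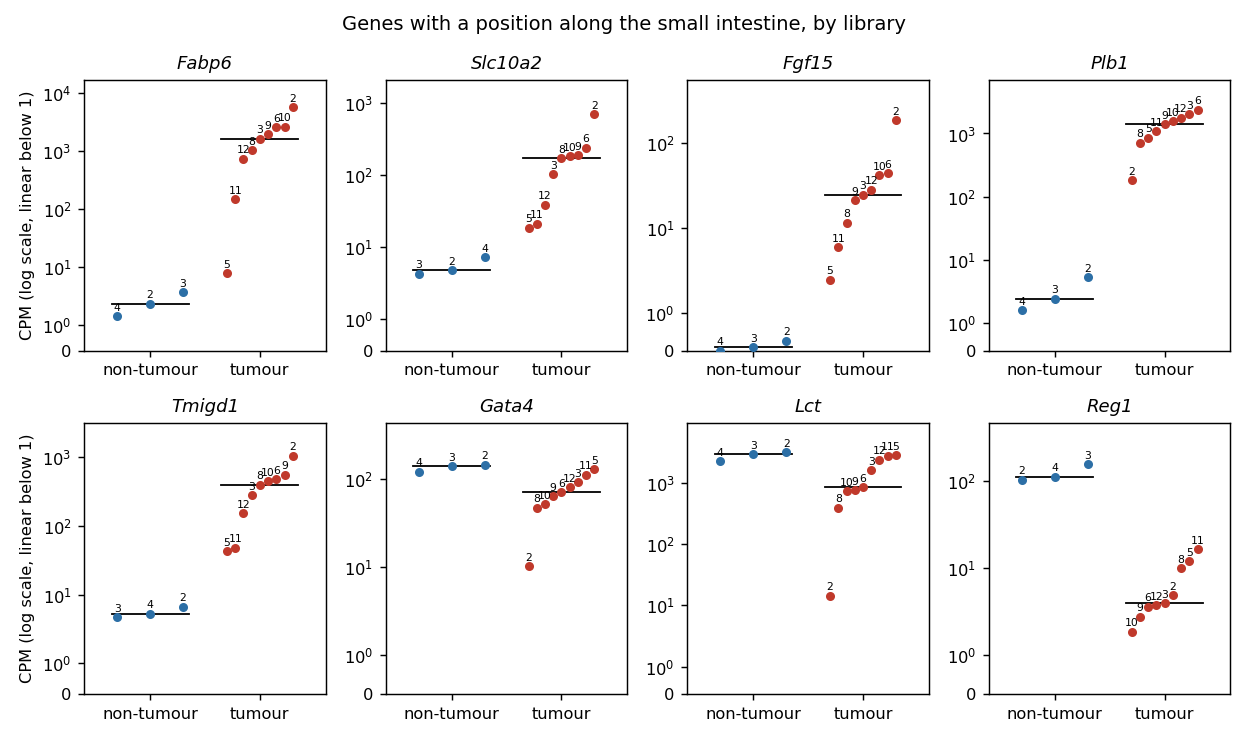
CPM on a log scale (linear below 1) of genes that vary along the small intestine, in the 3 non-tumour libraries (blue) and the 9 tumours (red), numbered by replicate, with the median as a bar. Tumour 2 is highest for Fabp6, Slc10a2, Fgf15 and Tmigd1 and lowest for Plb1, Gata4 and Lct.

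Other genes of absorptive cells were called in both directions. Of 17 brush border hydrolases tested, 3 rose and 2 fell (against 5.03% and 5.92% of all genes). Without non-tumour replicate 4, 1 rose and 2 fell (against 7% and 7.23%). Mep1a, a subunit of the metalloprotease meprin, had 600 to 1492 CPM in tumours and 219, 177 and 109 CPM in non-tumour tissue, without overlap (2.48 ± 0.37, adjusted p = 0.00359, edgeR). Xpnpep2, an aminopeptidase, had 286 to 805 CPM against 291, 242.3 and 111 CPM (1.31 ± 0.37, adjusted p = 0.0406). Sis, sucrase-isomaltase, had 1042 to 2263 CPM against 5817, 5131 and 1884 CPM and fell by 1.39 (SE 0.37, adjusted p = 0.0332, edgeR). Slc34a2, a phosphate transporter, rose from 81.8, 56.9 and 39.2 CPM to 252.9 to 1156 CPM (3.12 ± 0.58, adjusted p = 0.00871, edgeR).

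Targets of PPAR-alpha, the fatty acid sensor that drives fat oxidation, were lower for 6 of 17 genes tested and higher for none (median -0.35). Of all genes 5.92% were lower and 5.03% higher. Cyp4a10, a fatty acid hydroxylase, had 0 to 0.716 CPM in tumours and 2.97, 4.13 and 4.59 CPM in non-tumour tissue (-3.80 ± 0.46, adjusted p = 0.00146, edgeR). Bbox1, the last enzyme of carnitine synthesis, had 0.130 to 3.28 CPM against 17.8, 20.6 and 22.9 CPM (-3.88 ± 0.54, adjusted p = 0.00339). Neither overlapped. Acaa2 of mitochondrial beta-oxidation fell by 0.98 (SE 0.28, adjusted p = 0.0411, edgeR). Scarb1, a lipoprotein receptor, had 8.85 to 33.1 CPM against 55.0, 62.1 and 80.1 CPM and fell by 1.70 (SE 0.25, adjusted p = 0.00347, edgeR).

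The falls of largest size in this comparison included enzymes that modify foreign compounds, steroids and alcohols. Sult6b2, a cytosolic sulfotransferase, had 0.181 to 7.09 CPM in tumours and 34.7, 42.4 and 85.4 CPM in non-tumour tissue (-4.80 ± 0.64, adjusted p = 0.00312, edgeR). Its fold change was -5.45 without tumour 11, which had the highest level of the 9. Cyp3a11 had 27.2 to 231.2 CPM against 547, 562 and 485 CPM and fell by 2.08 (SE 0.50, adjusted p = 0.0229, edgeR). Cyp2c66 fell by 2.50 (SE 0.61, adjusted p = 0.0245) and Adh4, an alcohol dehydrogenase, by 2.27 (SE 0.52, adjusted p = 0.0186), all without overlap. Mcoln3, a calcium channel of endosomes and lysosomes, had 0.532 to 4.20 CPM against 13.9, 13.2 and 10.1 CPM and fell by 3.06 (SE 0.49, adjusted p = 0.00455, edgeR).

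Among these absorptive and metabolic genes the calls of Cyp2c66, Adh4, Cyp3a11, Sis, Xpnpep2 and Acaa2 ended without non-tumour replicate 2 (adjusted p 0.0700 to 0.176, edgeR) or 3 (0.0658 to 0.162). That of Xpnpep2 also ended without non-tumour replicate 4 (0.0779). Those of Sis, Xpnpep2 and Acaa2 ended without single tumours among replicates 3, 5, 6, 8, 9, 10, 11 and 12 (0.0508 to 0.0666).

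Of 12 goblet cell genes 1 rose, Muc2, the main secreted mucin, from 526, 698 and 559 CPM to 1229 to 2857 CPM (1.66 ± 0.32, adjusted p = 0.00921, edgeR), and 2 rose and 1 fell without non-tumour replicate 4. Of 13 Paneth cell genes, 2 fell and none rose (median -0.98), and 6 fell without non-tumour replicate 4. Beside both lists, 5.03% of all genes rose and 5.92% fell, or 7% and 7.23% without that library. Mptx2, a pentraxin of Paneth cells, had 98.5 to 320 CPM in tumours and 1037, 804 and 311 CPM in non-tumour tissue (-1.97 ± 0.38, adjusted p = 0.0105, edgeR). Defa26, an alpha-defensin, had 1.33 to 13.4 CPM against 74.1, 55.3 and 1.41 CPM (-2.56 ± 0.67, adjusted p = 0.0310). For both, non-tumour replicate 4 was at the level of the tumours. The alpha-defensins are near-identical copies, so the count of a single one is uncertain.

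Of 17 enteroendocrine genes tested, 5 fell and 1 rose (against 5.92% and 5.03% of all genes), with 9 lower without non-tumour replicate 4 (against 7.23%). Pyy, a peptide hormone of the distal gut, had 10.4 to 24.1 CPM in tumours and 3.15, 1.93 and 1.94 CPM in non-tumour tissue (2.66 ± 0.36, adjusted p = 0.00318, edgeR). Cck, a hormone of the proximal gut, had 2.22 to 4.11 CPM against 6.66, 7.44 and 8.47 CPM and fell by 1.26 (SE 0.25, adjusted p = 0.0107). Neither gene overlapped between the groups. Chgb, a granule protein, fell by 1.64 (SE 0.33, adjusted p = 0.0127) and Ghrl, which encodes ghrelin, by 1.87 (SE 0.43, adjusted p = 0.0201). Vip, a peptide of enteric neurons, had 8.73 to 19.3 CPM against 38.7, 49.2 and 54.5 CPM (-1.90 ± 0.18, adjusted p = 0.000287, edgeR), and it was the single gene called among 13 of enteric neurons and glia. The calls of Mptx2, Defa26, Chgb and Ghrl ended without non-tumour replicate 2 (0.0635 to 0.170), those of Defa26 and Ghrl without replicate 3 (0.0967 and 0.0694), and that of Defa26 without tumour 3 or 9 (0.0516 and 0.0546).

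The epithelial oxidase system that makes hydrogen peroxide at the mucosal surface was higher. Duox2 (chromosome 2, 122279247 to 122298449, minus strand), the oxidase, had 745, 431, 138, 211, 276, 209, 351, 205 and 249.1 CPM in tumour replicates 2, 3, 5, 6, 8, 9, 10, 11 and 12 and 19.8, 29.7 and 46.9 CPM in non-tumour tissue. Every tumour was above every non-tumour library, with tumour 2 highest (3.22 ± 0.47, adjusted p = 0.00347, edgeR). Duoxa2, its maturation factor and neighbour in the genome (122298900 to 122302885, plus strand), had 39.7 to 250.9 CPM against 6.12, 9.74 and 20.3 CPM (3.09 ± 0.50, adjusted p = 0.00478). Duox1, a related oxidase, had 2.56 to 15.3 CPM against 0.270 to 0.706 CPM (3.34 ± 0.58, adjusted p = 0.00646). Duox2 and Duoxa2 were the 2 called of 12 mucosal defence genes tested (5.03% of all genes rose). For 4 of the 12 the groups did not overlap (6.01% of all genes were higher without overlap).

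Of 17 genes of inflammation and NF-kB tested, 2 rose and 1 fell (against 5.03% and 5.92% of all genes). Relb, an NF-kB subunit, had 74.4 to 121 CPM against 54.6, 48.0 and 39.7 CPM (0.90 ± 0.15, adjusted p = 0.00593, edgeR). Tnfaip3, a feedback inhibitor of NF-kB, rose by 0.54 ± 0.16 (adjusted p = 0.0467, edgeR). Tnfaip2, a TNF-induced gene that endothelial and myeloid cells also express, fell by 1.25 (SE 0.36, adjusted p = 0.0440, edgeR). Without non-tumour replicate 4, the library with the high endothelial and macrophage sums, its log2 fold change was -0.11 (adjusted p = 0.709). The part of those cells in this change was not tested. Bpifb5, of a family of secreted lipid-binding proteins, had 58.6 to 599 CPM against 1.53, 33.2 and 49.4 CPM (3.19 ± 0.85, adjusted p = 0.0328, edgeR). The calls of Bpifb5 and Tnfaip3 ended without non-tumour replicate 2 (0.0655 and 0.161) or 3 (0.0724 and 0.0790), and that of Tnfaip3 without replicate 4 (0.0961). Those of Tnfaip2 and Tnfaip3 ended without most single tumours (0.0573 to 0.0692).

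The title of the study names the EGF receptor and IL-6 trans-signalling. Of 12 genes of the EGF receptor family, its ligands and their shedding tested, 1 rose (against 5.03% of all genes). Without non-tumour replicate 4, 3 rose and 1 fell (against 7% and 7.23%). Egfr had 58.2 to 91.7 CPM in tumours and 35.3, 36.2 and 58.4 CPM in non-tumour tissue, overlapping at tumour 9 with non-tumour replicate 4 (0.70 ± 0.18, adjusted p = 0.0271, edgeR). Of 14 genes of ERK feedback 1 rose, Fosl1, an AP-1 subunit, from 0.270, 0.184 and 1.41 CPM to 1.17 to 6.65 CPM (2.55 ± 0.70, adjusted p = 0.0361, edgeR). Without non-tumour replicate 4 its log2 fold change was 3.57, and 7 of the 14 rose (against 7% of all genes).

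Of 17 genes of the IL-6 family and its STAT3 response 1 rose and 1 fell (against 5.03% and 5.92% of all genes). Without non-tumour replicate 4, 3 rose and 1 fell (against 7% and 7.23%). Junb, an AP-1 subunit, rose by 0.45 ± 0.10 (adjusted p = 0.0185, edgeR). Lifr, the LIF receptor, had 7.24 to 11.2 CPM against 14.6, 12.4 and 54.7 CPM (-1.50 ± 0.29, adjusted p = 0.0109, edgeR), or -0.71 without non-tumour replicate 4. Il6 itself was close to the detection limit, at 0 to 1.86 CPM in tumours and 0.0900 to 0.353 CPM in non-tumour tissue (2.11 ± 1.28, adjusted p = 0.292). Socs3, the feedback inhibitor that STAT3 induces, had 33.7 to 53.9 CPM against 30.5, 30.1 and 45.5 CPM (0.15 ± 0.16, adjusted p = 0.557). The calls of Egfr, Fosl1 and Junb ended without non-tumour replicate 2 (0.0835 to 0.153), those of Egfr and Fosl1 without replicate 3 (0.0861 and 0.126), and that of Fosl1 without tumour 9 or 12 (0.0572 and 0.0507).

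Of 15 cholesterol synthesis genes 5 rose and none fell (median 0.53), and 8 rose without non-tumour replicate 4. Of all genes 5.03% rose and 5.92% fell, and 7% rose without that library. Fdft1, squalene synthase, had 82.3 to 184 CPM against 44.2, 48.2 and 80.6 CPM (1.07 ± 0.20, adjusted p = 0.00951, edgeR). Cyp51 rose by 0.85 ± 0.18 (adjusted p = 0.0143) and Mvd by 1.0 ± 0.26 (adjusted p = 0.0277). Of 12 claudin and adhesion genes 5 rose and none fell, and 3 rose without non-tumour replicate 4. For 6 the groups did not overlap (6.01% of all genes were higher without overlap). Cldn3 rose by 0.65 ± 0.14 (adjusted p = 0.0177, edgeR), Cldn23 by 0.69 ± 0.16 (adjusted p = 0.0193) and F11r, a junctional adhesion molecule, by 0.41 ± 0.10 (adjusted p = 0.0238).

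Of 11 smooth muscle genes 3 rose and none fell (against 5.03% and 5.92% of all genes). Actg2, the enteric smooth muscle actin, had 182 to 334 CPM in tumours and 121, 102 and 89.5 CPM in non-tumour tissue (1.18 ± 0.20, adjusted p = 0.00633, edgeR). Des, desmin, rose by 0.90 ± 0.18 (adjusted p = 0.0119), and Cnn1, calponin, by 0.84 ± 0.18 (adjusted p = 0.0147), each without overlap. In bulk tissue, fewer cells of a type and less RNA per cell cannot be told apart, and this holds for every cell type list here. Other genes among the 15 largest rises were Ttc36 (3.41 ± 0.84, adjusted p = 0.0248), Kcnj13, a potassium channel (3.28 ± 0.88, adjusted p = 0.0331), Bex1 (2.87 ± 0.50, adjusted p = 0.00664; 3.75 without non-tumour replicate 3) and Asprv1, a retroviral-like protease (2.86 ± 0.49, adjusted p = 0.00600). The calls of Ttc36 (4.05), Kcnj13, Fdft1, Cyp51, Mvd, Cldn3, Cldn23 and F11r ended without non-tumour replicate 2 (0.0534 to 0.129), those of Ttc36, Kcnj13, Cyp51, Mvd and Cnn1 without replicate 3 (0.0528 to 0.102), those of Ttc36, Kcnj13 and F11r without replicate 4 (0.0508 to 0.0703), and that of Kcnj13 without tumour 3 or 10 (0.0507 and 0.0512).

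Several further lists had few or no calls. Of all genes 5.03% rose and 5.92% fell, or 7% and 7.23% without non-tumour replicate 4. Of 23 genes of replication and mitosis 1 fell, the mitotic kinesin Kif11 (-0.81 ± 0.23, adjusted p = 0.0384, edgeR), and the median was -0.09. None of 15 ribosome biogenesis genes was called in edgeR (1 lower at an unadjusted p of 0.05, none in DESeq2). Of all 15113 genes DESeq2 called 1271 higher and 1370 lower, and no such share was taken at the unadjusted threshold. Of 14 interferon response genes 1 fell, Gbp3 (-1.19 ± 0.30, adjusted p = 0.0266; -0.61, adjusted p = 0.143 without non-tumour replicate 4). Of 16 hypoxia and glycolysis genes Egln3 rose (1.28 ± 0.28, adjusted p = 0.0157) and Pfkfb3 fell (-0.93 ± 0.26, adjusted p = 0.0368), and 7 rose without non-tumour replicate 4. Of 12 genes of BMP signalling Id1 rose (0.66 ± 0.18, adjusted p = 0.0337), and 2 rose without non-tumour replicate 4. The calls of Kif11, Egln3, Pfkfb3 and Id1 ended without non-tumour replicate 2 (0.0753 to 0.147) or 3 (0.0586 to 0.128), those of Kif11 and Pfkfb3 without replicate 4 (0.0841 and 0.0711), and those of Kif11, Pfkfb3 and Id1 without single tumours among replicates 3, 6, 8, 9, 10, 11 and 12 (0.0512 to 0.0633).

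None of 14 genes of matrix proteases and the urokinase system, 11 sugar and peptide transporters, 6 colon genes or 6 neutrophil genes was called in edgeR either. At an unadjusted p of 0.05 these lists had 1 higher and 1 lower, 3 lower, 2 higher and 2 lower genes. DESeq2 called 1 higher and 1 lower, 1 lower, 1 higher and none. Of all 15113 genes DESeq2 called 1271 higher and 1370 lower, and no such share was taken at the unadjusted threshold. Without non-tumour replicate 4, 3 matrix protease genes were higher, with a median of 1.49 in place of 0.30. In the same setting 3 sugar and peptide transporters were lower and 1 neutrophil gene was higher (against 7.23% and 7% of all genes).

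None of 13 T and NK cell genes, 12 fibroblast genes, 9 mast cell genes, 9 tuft cell genes, 9 gastric-type genes or 6 red blood cell genes was called in edgeR. At an unadjusted p of 0.05, 1 T and NK cell gene, 5 fibroblast genes and 2 red blood cell genes were lower, and 1 mast cell, 1 tuft cell and 1 gastric-type gene were higher. DESeq2 called 1 T and NK cell gene lower and 1 gene each of the mast cell, tuft cell and gastric-type lists higher. Its calls over all 15113 genes were 1271 higher and 1370 lower, and no such share was taken at the unadjusted threshold. Without non-tumour replicate 4, edgeR called 1 gene each of the mast cell, tuft cell and gastric-type lists higher and 1 fibroblast gene lower. In that setting 7% of all genes were higher and 7.23% lower. The 9 gastric-type genes had a median log2 fold change of 0.72, or 3.15 without non-tumour replicate 4, in which they summed to 531 CPM against 60.9 and 65.9 CPM in replicates 2 and 3.

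The calls among macrophage and endothelial genes depended on non-tumour replicate 4. Of 13 macrophage and dendritic cell genes 8 fell and none rose (median -1.03), and of 11 endothelial genes 6 fell and none rose (median -1.51). Over all genes 5.92% fell, or 7.23% without replicate 4. Without replicate 4, 1 macrophage and dendritic cell gene fell and 1 rose (median -0.35), and 2 endothelial genes fell (median 0.14). DESeq2 called 10 and 1 lower in these lists with all libraries, against 1370 of all 15113 genes. Kdr, the main VEGF receptor of endothelium, had 15.2 to 24.5 CPM in tumours and 19.8, 13.9 and 337 CPM in non-tumour replicates 2, 3 and 4. Its log2 fold change of -2.42 ± 0.58 (adjusted p = 0.0227, edgeR) became 0.14 (adjusted p = 0.686) without replicate 4.

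Some of these calls did not depend on replicate 4, and of the genes given next all except Lyve1 were lower in every tumour than in every non-tumour library. Tek, the angiopoietin receptor, had 3.70 to 6.92 CPM in tumours and 9.27, 7.35 and 57.3 CPM in non-tumour tissue (-2.15 ± 0.40, adjusted p = 0.00833, edgeR), and -0.85 (adjusted p = 0.0196) without replicate 4. Lyve1, a receptor of lymphatic endothelium, had 7.94 to 13.8 CPM against 15.1, 13.1 and 20.5 CPM (-0.82 ± 0.16, adjusted p = 0.0101), and -0.75 without replicate 4. Calcrl, the adrenomedullin receptor, had 2.33 to 5.34 CPM against 10.6, 9.74 and 49.9 CPM (-2.32 ± 0.34, adjusted p = 0.00359), and -1.36 without it. Ccl11, the eosinophil chemokine eotaxin, had 2.05 to 4.70 CPM against 13.2, 11.6 and 20.3 CPM (-2.08 ± 0.20, adjusted p = 0.000314), and -1.95 without it.

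Adgre1, the macrophage marker F4/80, had 3.91 to 7.34 CPM in tumours against 12.9, 8.36 and 30.7 CPM (-1.49 ± 0.26, adjusted p = 0.00646, edgeR), and -0.98 without replicate 4. The calls of Csf1r, Ms4a7, C1qc, Emcn and Cysltr1 ended without that library (adjusted p 0.0517 to 0.495, edgeR). Their log2 fold changes moved from -1.49 to -0.63 for Csf1r, from -1.42 to -0.58 for Ms4a7, from -1.32 to -0.41 for C1qc, from -1.62 to -0.21 for Emcn and from -2.17 to -0.66 for Cysltr1. Mmrn2 (-2.22 to -0.92), Sema3g (-2.15 to -0.94), Fmo2 (-2.203 to -1.416) and Cd209b (-2.88 to -1.75) kept their calls at a smaller size.

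**Figure D4:**
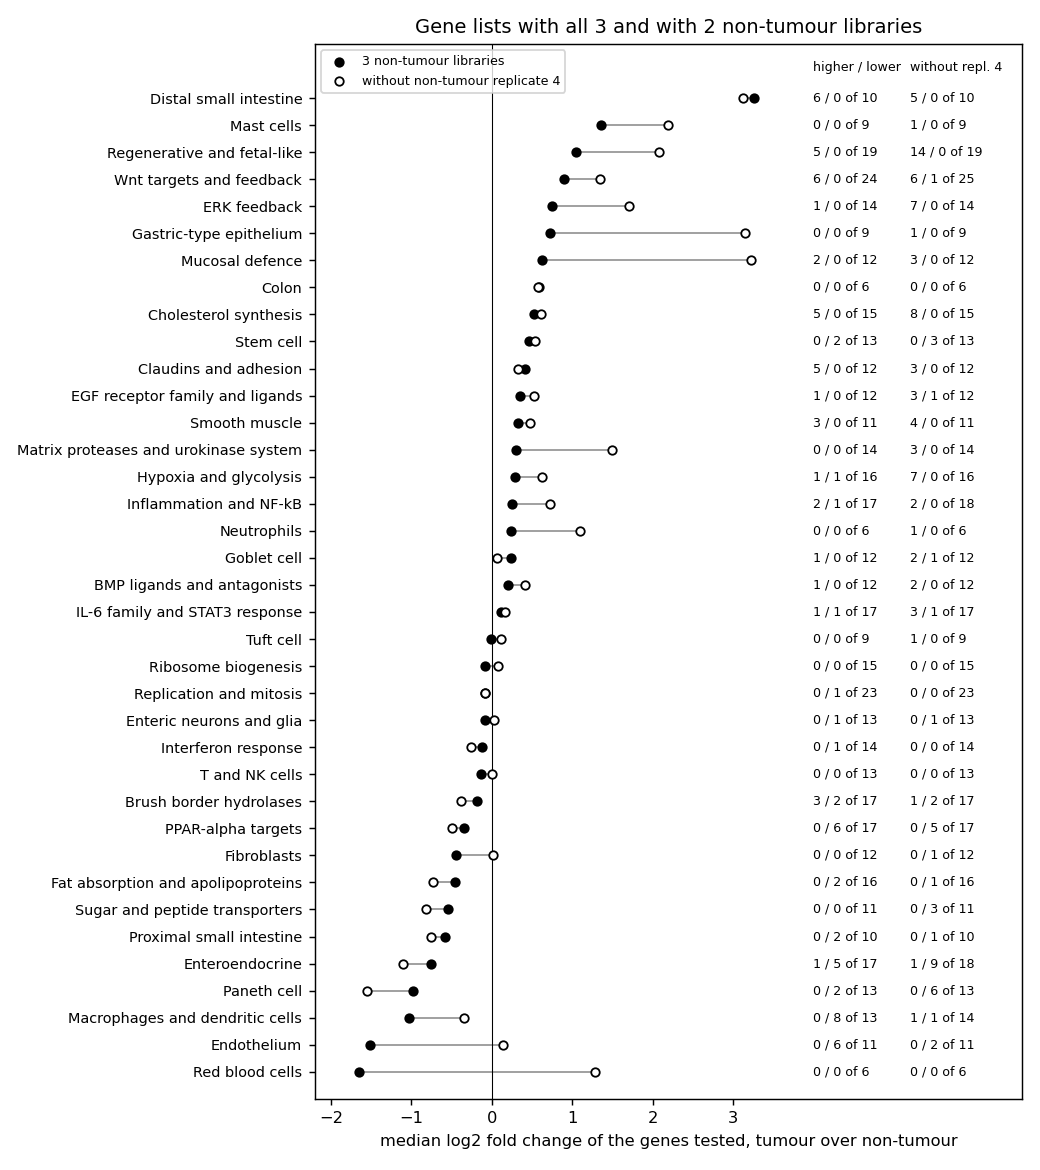
Each row is a gene list, with the median log2 fold change of its tested genes in tumour over non-tumour tissue with 3 non-tumour libraries (filled) and without non-tumour replicate 4 (open). The columns on the right give the genes higher and lower at an adjusted p of 0.05, and endothelial genes go from 6 lower to 2 lower.

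The same contrast in Adam17 ex/ex mice used 17 tumours and 6 non-tumour libraries that no Cd79a threshold had selected. Adam17 had 10.4 to 42.4 CPM in the ex/ex tumours and 8.60 to 12.2 CPM in ex/ex non-tumour tissue, below the wild-type non-tumour level of 42.5 to 66.9 CPM. Cd79a ranged from 3.26 to 923 CPM in the ex/ex tumours, so genotype and lymphoid content cannot be told apart in what follows. Position along the gut, which the labels do not give, cannot be told apart from them either. In a fit of 38 libraries 8949 of 16570 genes (54.0%) passed in ex/ex, 4515 (27.2%) higher and 4434 (26.8%) lower. Of the 760 genes higher in the wild-type tumours 272 (35.8%) were also higher in ex/ex, where 25.3% of the same tested genes were higher. Of the 895 lower genes 549 (61.3%) were also lower, against 28.4%. In the opposite direction ex/ex had calls for 54 of the 760 and 103 of the 895. These wild-type calls came from the fit of 12 libraries. In the fit of 38 libraries 449 genes were higher and 673 lower in the wild-type tumours. The shared genes were 7.10% and 12.8% of the ex/ex calls.

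The difference between the 2 contrasts passed the test for 2693 genes (16.3%), of which 899 (5.43%) moved up more in wild type and 1794 (10.8%) less. This split was 382 against 1402 without non-tumour replicate 2, 456 against 1521 without replicate 3 and 1047 against 1122 without replicate 4. Of 25 Wnt targets and feedback genes, 14 moved up more in the wild-type tumours and 1 less. In ex/ex 4 of the 25 rose and 10 fell (against 27.2% and 26.8% of all genes). Notum had 0 to 5.12 CPM in the 17 ex/ex tumours (median 0.113) and 0.180 to 4.42 CPM in ex/ex non-tumour tissue. Its difference between the contrasts was 4.74 ± 1.44 on the log2 scale (adjusted p = 0.0213, edgeR). Neither contrast of Notum passed alone in the fit of 38 libraries. The log2 fold change was -1.58 ± 0.92 in ex/ex (adjusted p = 0.145, edgeR) and 3.16 in wild type (adjusted p = 0.0838). Nkd1 had 3.34 to 13.6 CPM in ex/ex tumours and 4.95 to 16.3 CPM in ex/ex non-tumour tissue (difference 3.43 ± 0.74, adjusted p = 0.00147). Lgr5 had 1.29 to 10.1 CPM against 11.1 to 28.8 CPM there (difference 3.15 ± 0.71, adjusted p = 0.00222).

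The 3 lymphoid-rich wild-type tumours also had little Notum, at 0.111, 5.63 and 0 CPM in replicates 1, 4 and 7. In the ex/ex tumours with the least Cd79a, replicate 2 (3.26 CPM of Cd79a) had 1.79 CPM of Notum and replicate 1 (59.5 CPM) had 5.12 CPM. All these values lay below the lowest of the 9 lymphoid-poor wild-type tumours.

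Of 11 distal small intestine genes 4 were higher and 1 lower in ex/ex, against 27.2% and 26.8% of all genes there. Fabp6 rose by 6.81 in ex/ex (adjusted p = 0.00296, edgeR) and Slc10a2 by 3.55 (adjusted p = 0.0126), and their differences between the contrasts did not pass (adjusted p = 0.485 and 0.587). Plb1 had 7.54 to 2775 CPM in ex/ex tumours and 1.45 to 2128 CPM in ex/ex non-tumour tissue, and its contrasts differed (7.10 ± 2.53, adjusted p = 0.0494). Of 13 stem cell genes 12 fell in ex/ex, and 9 fell less or moved up more in wild type (against 26.8% and 5.43% of all genes). Reg1 fell in both (-7.66 in ex/ex, adjusted p = 2.72e-08), and the difference between the contrasts did not pass (adjusted p = 0.165).

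**Figure D5:**
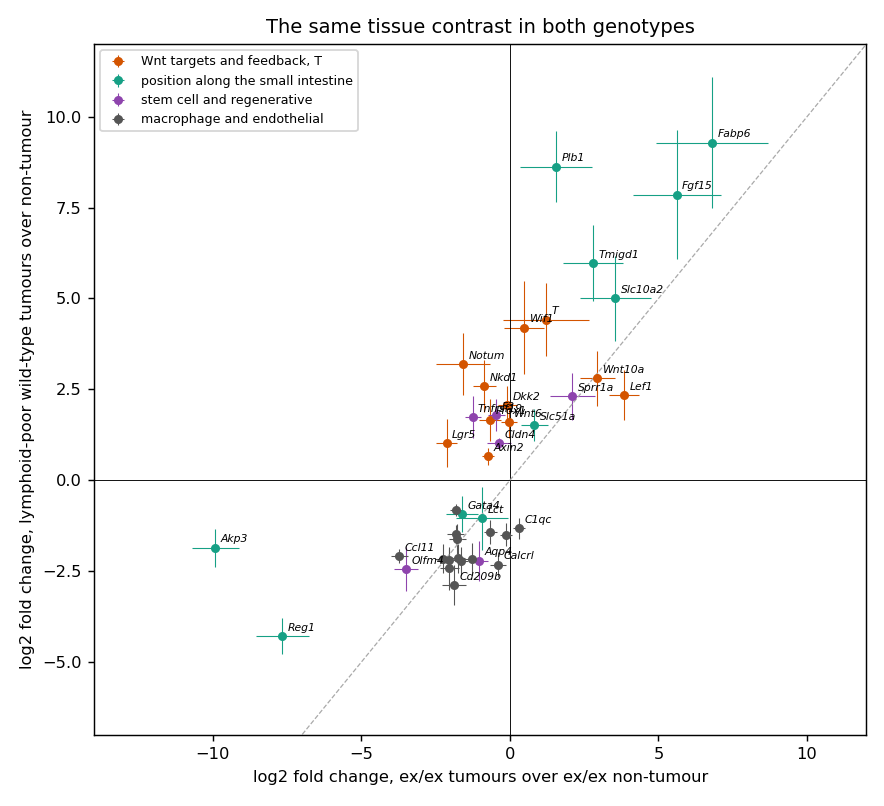
Log2 fold change of tumour over non-tumour tissue in ex/ex mice (horizontal) and in the lymphoid-poor wild-type tumours (vertical), with standard errors as bars and equality as a dashed line. Notum, Nkd1 and Lgr5 lie above 0 in wild type and below 0 in ex/ex, while Fabp6 (9.29 and 6.81) and Reg1 (-4.29 and -7.66) have the same sign in both.

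Among the 9 tumours, genes with a mean log2 CPM of at least 4 had a median SD of 0.227 on the log2 scale. Wfdc18, which encodes a secreted protein with a whey acidic protein domain, varied most (SD 3.02), with 149, 81.7, 7.27, 2.89, 795, 605, 352, 7.29 and 249.3 CPM in tumour replicates 2, 3, 5, 6, 8, 9, 10, 11 and 12. It was low in replicates 5, 6 and 11 and highest in 8 and 9, the order also seen for the Wnt feedback genes. Slc38a4, an amino acid transporter, had 128, 93.0, 2.35, 26.5, 562, 346, 293, 3.39 and 168 CPM in the same order, and 0.990, 2.48 and 4.23 CPM in non-tumour tissue. Its log2 fold change was 6.08 ± 1.68 (adjusted p = 0.0367, edgeR), a call that ended without any 1 of the 3 non-tumour libraries (0.0630 to 0.138) or without tumour 3, 9, 10 or 12 (0.0502 to 0.0557).

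Lcn2, an iron-binding defence protein, and Lrg1, a secreted glycoprotein, had their lowest levels in the same 3 tumours, at 1.74 to 4.11 CPM and 2.05 to 2.67 CPM, and their highest in tumour 8, at 148 and 140 CPM. Muc6, a mucin of gastric and duodenal glands, had 12.1, 2.35 and 13.4 CPM in tumours 5, 6 and 11 and 161 to 280 CPM in tumours 8, 9, 10 and 12, and non-tumour replicate 4 had 62.6 CPM. Lipf, gastric lipase, went the other way, with 207, 121 and 162 CPM in tumours 5, 6 and 11 and 1.33 to 36.9 CPM in the other 6. Slc2a2, the basolateral glucose transporter, was highest in tumours 5 (275 CPM) and 11 (182 CPM) and lowest in tumour 2 (2.04 CPM), against 335 to 554 CPM in non-tumour tissue.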

How the data were processed

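RNA from tumour and surrounding tissue was made into stranded mRNA libraries, per the labels' protocols. The authors deposited counts per gene, 1 file per library, made with Trimmomatic 0.36, TopHat2 2.0.14 and HTSeq on GRCm38, per the submitters' processing notes; no source used here gives the strand setting or annotation of the counting. Of 49585 gene IDs, 49326 matched GENCODE M21. Lines starting with __ hold reads on no gene (3.00% to 6.39% of all entries were on no feature, and 29.7% to 33.7% aligned to several places) and were left out. The 9 tumours and 3 non-tumour libraries were compared with edgeR 4.0.16 (quasi-likelihood test, TMM scaling, filterByExpr, R 4.3.3), with p-values adjusted over all genes tested. A joint fit of 38 libraries gave the ex/ex contrast and the difference between the contrasts. Standard errors are the log2 fold change divided by the square root of F. The fits were tested on simulated data. CPM values are unscaled by TMM. DESeq2 1.42.0, limma-voom (limma 3.58.1), other scaling and filters, other sets of libraries and each library left out were the alternatives. The members and gene lists were chosen with earlier results of these data known. The genes named are Apc, Adam17, the 15 largest rises and falls at an average log2 CPM of 2 or more and without overlap, up to 4 of lowest p per list, all members of 6 lists on Wnt, stem cells, EGF receptor, IL-6 and gut position, and the 15 most variable; not all are printed, and some are not reported here. With 3 non-tumour libraries their number limits the precision.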

Additional observations from a re-analysis of the deposited data

Results flagged for a closer look

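In 8 of 106 genes examined the lowest of the 9 tumours stood apart from the rest, by a gap to its nearest neighbour over the whole range above Dixon's 95% critical value, and chance gives such a gap in about 1 in 20 groups. Tumour replicate 2 was this library for 4 of them, with a ratio of 0.534 for Plb1 (181 CPM), 0.603 for Gata4 (10.2 CPM), 0.626 for Lct (14.4 CPM) and 0.717 for Slc23a1 (0.464 CPM). The other ratios were 0.527 for Dkk2 in replicate 5 (1.84 CPM), 0.552 for Xpnpep2 in replicate 8 (286 CPM), 0.544 for Defa26 in replicate 10 (1.33 CPM) and 0.553 for Adgre1 in replicate 8 (3.91 CPM).

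The tissue difference was not the same in the lymphoid-poor wild-type tumours and in ex/ex tumours for 24 of the genes described, by the edgeR test of the difference itself. The genes described were 87 called and 10 not called in wild type, and of all 16570 genes 16.3% passed this test. Many were named through the wild-type contrast, which is part of the difference tested, so that share is not a like background. The values are the wild-type log2 fold change minus that in ex/ex, with the adjusted p. Among Wnt and stem cell genes, the difference was positive for Dkk2 (2.16, adjusted p = 0.00680), Wnt6 (1.62, adjusted p = 0.0176), Notum (4.74, adjusted p = 0.0213), Tnfrsf19 (2.98, adjusted p = 0.000162), Axin2 (1.40, adjusted p = 0.0103), Lgr5 (3.15, adjusted p = 0.00222), Wif1 (3.71, adjusted p = 0.0148), Nkd1 (3.43, adjusted p = 0.00147) and Prox1 (2.31, adjusted p = 0.0110). It was also positive for Plb1 (7.10, adjusted p = 0.0494), Bex1 (3.13, adjusted p = 0.0135), Asprv1 (2.50, adjusted p = 0.00257), Ccl11 (1.64, adjusted p = 0.0369), F3 (2.22, adjusted p = 0.00234), Akp3 (8.04, adjusted p = 0.00127), Egfr (1.29, adjusted p = 0.0411) and Slc38a4 (8.96, adjusted p = 0.000126). It was negative for Adam17 (-1.25, adjusted p = 0.000259), Calcrl (-1.94, adjusted p = 0.00268), Tnfaip2 (-2.63, adjusted p = 0.000622), Gbp3 (-1.58, adjusted p = 0.00215), Csf1r (-1.38, adjusted p = 0.00528), C1qc (-1.66, adjusted p = 0.000603) and Socs3 (-1.16, adjusted p = 0.000327). Most ex/ex tumours held more Cd79a, and genotype and lymphoid content cannot be told apart. The ex/ex non-tumour libraries were also uneven. Akp3 had 13.7 to 9650 CPM there (median 52.6) and Plb1 1.45 to 2128 CPM (median 2.14). Position along the gut, which the labels do not give, cannot be told apart from these differences either.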

How the results depend on the processing

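The count of 1655 called genes was 1678 with DESeq2's size factors in edgeR and 1122 in the fit of 38 libraries, but 2641 in DESeq2, 1040 with no filter on low counts, 6623 in limma-voom with quality weights and 187 with all 12 wild-type tumours. With 1 library left out it ran from 492 (without non-tumour replicate 2) to 2194 (without non-tumour replicate 4), and the difference between the contrasts, 2693 genes in the fit of 38 libraries, ran from 1784 to 2169 without 1 wild-type non-tumour library. The share of calls that were higher, 45.9%, was 32.7% without non-tumour replicate 2, 33.5% without replicate 3 and 21.4% with all 12 tumours. Of the 87 genes called and described, 86 kept the call with DESeq2's size factors, 80 in DESeq2 (7 had no adjusted p), 78 with no filter, 48 in the fit of 38 libraries and 16 with all 12 tumours. Without non-tumour replicates 2, 3 and 4, 43, 50 and 67 kept it. Adam17 reversed to 0.049 (adjusted p = 0.935, edgeR) with all 12 tumours. Kdr reversed to 0.14 without non-tumour replicate 4, and its lowest value with 1 library left out was -2.94. The cause of these changes was not tested. Non-tumour replicate 4 was the shallowest of the 12 libraries (5668185 gene counts), and the 3 non-tumour libraries limit the precision. No paired analysis was possible because the labels carry no replicate numbers or animals that tie a tumour to its surrounding tissue.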
